A study of Mus musculus with 6 samples.

Results

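The genes described here are 30 genes of glycolysis and of the response to low oxygen, taken by symbol from the 55291 gene symbols of the deposited count table. They are 3 transporters of glucose or lactate, 15 enzymes or regulators of glycolysis and 12 genes that hypoxia-inducible factors (HIFs) are known to switch on.
All 30 symbols were in the table, and all 30 were among the 14475 genes with enough counts to be tested. The study profiled ILC1s (innate lymphoid cells of type 1) and NK cells (natural killer cells) sorted from subcutaneous MC38 tumours at day 14, where MC38 is a colon carcinoma line of C57BL/6 origin and the hosts were C57BL/6 mice labelled wild type. Each cell type had 3 libraries. Both groups came from the same tumour model, with no further allele or drug named for either, and cells from tissue without a tumour were not analysed here. The labels name no sort markers, and the number of mice behind each sample is not given in the sources used here. Nothing says that the 3 samples of a group came from separate animals, so a p-value reflects just the variation among these samples, and that may be technical.

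Glycolysis turns glucose into pyruvate in the cytosol and, when lactate dehydrogenase reduces that pyruvate, into lactate that leaves the cell. HIF-1 is a pair of a stable subunit and an oxygen-sensitive subunit, HIF-1α. In oxygenated cells prolyl hydroxylases mark HIF-1α for destruction, and when oxygen is low the factor accumulates and raises transcription of glucose transporters, most glycolytic enzymes, angiogenic factors and the hydroxylases themselves. Lymphocytes also raise glycolytic genes on activation through MYC and mTOR, without a lack of oxygen.

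The 6 libraries held 16931099 to 20224847 counts, and levels are given in CPM, a gene's counts per 1000000 scaled counts of its library. A count of 0 allows up to 3 counts, or 0.144 to 0.174 CPM depending on the library, for counting error only. The 10 defining genes of NK cells and ILC1s summed to 11249, 11975 and 7518 CPM in NK replicates 1 to 3. In ILC1 replicates 1 to 3 they summed to 6791, 6002 and 5671 CPM. All 10 genes were above 1 CPM in all 6 libraries. Among them Eomes, a transcription factor of NK cells, was at 361 to 561 CPM in NK libraries and at 68.3 to 169.8 CPM in ILC1 libraries, and Itga1, the ILC1 integrin CD49a, at 39.9 to 53.0 and at 129.7 to 177 CPM. Some libraries held far more RNA of other cell types than others. The summed level of 15 macrophage and monocyte markers was 391 to 529.99 CPM in the NK libraries, 583 CPM in ILC1 replicate 1, 464 CPM in ILC1 replicate 2 and 17521 CPM in ILC1 replicate 3, with 12 of 15 above 1 CPM in all 6. The collagen gene Col3a1 had 0.349, 4.16 and 403 CPM in the 3 NK libraries and 471, 761 and 20.8 CPM in the 3 ILC1 libraries. The 14 fibroblast and matrix markers summed to 713 to 2556 CPM in NK and 3295 to 6911 CPM in ILC1 libraries, with 4 of 14 above 1 CPM throughout. Of the sums of 713 and 790 CPM in NK replicates 1 and 2, Thy1 alone made up 694 and 760 CPM. In ILC1 replicate 3 fibronectin (Fn1) made up 5887 of 6911 CPM. The 12 epithelial markers, which a carcinoma cell could carry, summed to 28.2 to 52.5 CPM in NK and 118 to 394 CPM in ILC1 libraries. Of these Krt20 and Cdx2 were at 0 in every library and Krt8 at 2.001 CPM or less, while Cdh1, which some leukocytes also express, was at 12.1 to 23.2 CPM in NK and 97.4 to 377 CPM in ILC1 libraries. The part of these other cells in the values below was not tested. In bulk RNA of this kind, fewer cells of a type and less RNA per cell cannot be told apart.

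**Figure D1:**
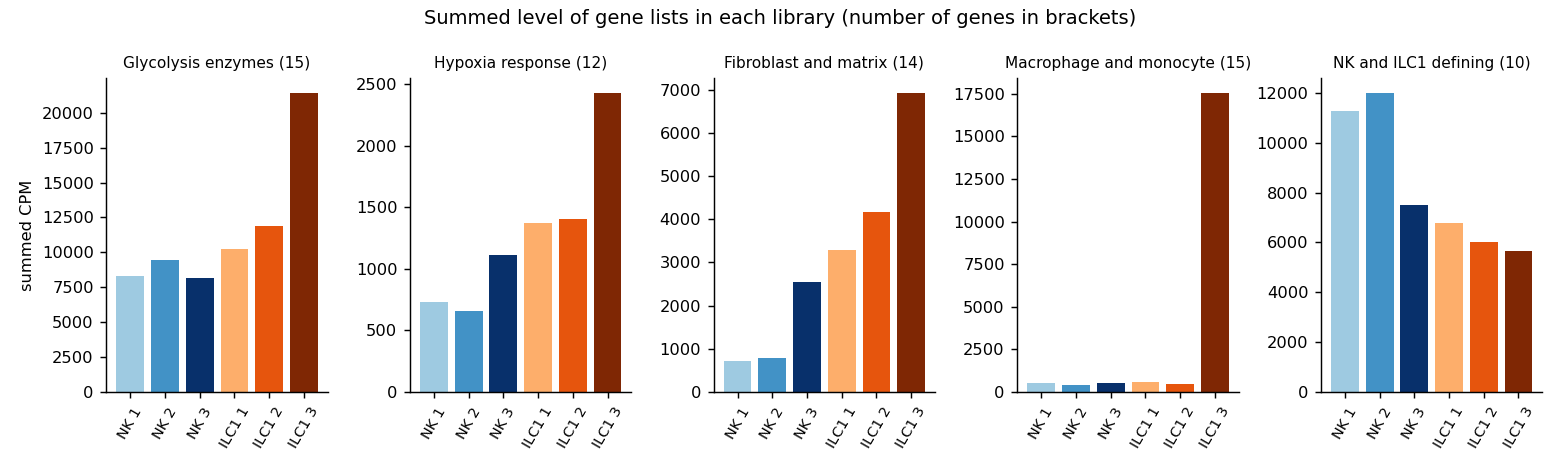
Summed CPM (vertical axis, from 0, with its own scale in each panel) of 5 gene lists in each of the 6 libraries. ILC1 replicate 3 has the tallest bar for the glycolysis enzymes (21388 CPM), the hypoxia response genes (2425 CPM) and the macrophage markers (17521 CPM), and NK replicate 3 stands above NK replicates 1 and 2 for the hypoxia response (1111 against 735 and 658 CPM) and for the matrix list, in which fibronectin (Fn1) and Thy1 make up most of the bar of ILC1 replicate 3.

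Comparing ILC1s with NK cells asks whether the 2 lymphocyte types from this tumour model differ in the genes of glucose use and oxygen sensing. Most of these genes had more mRNA in the ILC1 libraries, and none passed the test. Pgk1, which encodes the first ATP-yielding enzyme of glycolysis, had 1054 ± 403 CPM among ILC1s against 488 ± 71.5 among NK cells (mean ± SD of 3 libraries), Ndrg1, a HIF target of the N-myc downstream family, 307 ± 63.9 and 114 ± 68.3 CPM, and the lactate exporter gene Slc16a3 203 ± 184 and 48.4 ± 13.3 CPM. The fold change was positive for 28 of 30 genes (56% of all genes tested). It was negative for 2, Slc2a3 and Pfkp (44%). For 21 of 30 every ILC1 library lay above every NK library (12.5% of all genes tested), and for 0 every ILC1 library lay below (13.3%).
In edgeR's quasi-likelihood test with Benjamini-Hochberg adjustment over all genes, 0 of 30 passed at 0.05 in either direction (0.076% of all genes were called higher and 0.00691% lower). At an unadjusted p under 0.05, 19 were higher in ILC1s (6.95%) and 0 lower (8.82%). DESeq2 called 13 of 30 higher (2.94%) and 0 lower (4.03%). These were Pdk1, Pgk1, Hk2, Bnip3, P4ha1, Pfkl, Ankrd37, Pkm, Slc16a3, Egln3, Ndrg1, Vegfa and Mxi1. By limma-voom 0 were higher (0.0967%) and 0 lower (0.0138%). With other scalings or low-count filters edgeR again called 0, where the share of all genes called higher and lower was 0.0829 and 0.00691% with RLE factors, 0.0898 and 0.00691% with upper-quartile factors, 0.115 and 0.0192% over genes with a mean of at least 5 CPM (27 of the 30 genes) and 0.179 and 0.348% with no filter. The median log2 fold change (ILC1 minus NK) was 0.96 over the 30 genes and 0.081 over all genes tested. By edgeR the adjusted p ran from 0.16 for Pdk1 to 0.849 for Hk1.

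Leaving out ILC1 replicate 3 lowered the median to 0.52 (0.038 over all genes tested) and again gave 0 of 30 past edgeR's adjusted threshold (0.0729% called higher, 0.0729% lower). Then 11 were higher at an unadjusted p under 0.05 (4.68%) and Pfkp alone was lower (9.54%), while 26 had positive (53%) and 4 negative fold changes (47%). No overlap was left for 22 genes, with both ILC1 libraries above every NK library (27.4%), and for Pfkp and Pfkfb3 with both below (19.1%). Leaving out a library cannot create an overlap, so the 22 include the 21 genes without overlap in all 6 libraries. Pfkm was the gene added. Without NK replicate 3, edgeR called 3 of 30 higher (1.67%) and 0 lower (1.33%), namely Pdk1, P4ha1 and Ndrg1, with adjusted p = 0.0439, 0.0353 and 0.0336. That library held the most Col3a1 RNA of its group, whose part in the calls was not tested. With library sets as a term, NK replicate 3 was set together with ILC1 replicates 1 and 2, and each other set held a single cell type. The cell types were then compared within those 3 libraries only, with a median of 0.36 over the 30 genes. As this rests on 1 NK library, its p-values support no call.

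**Figure D2:**
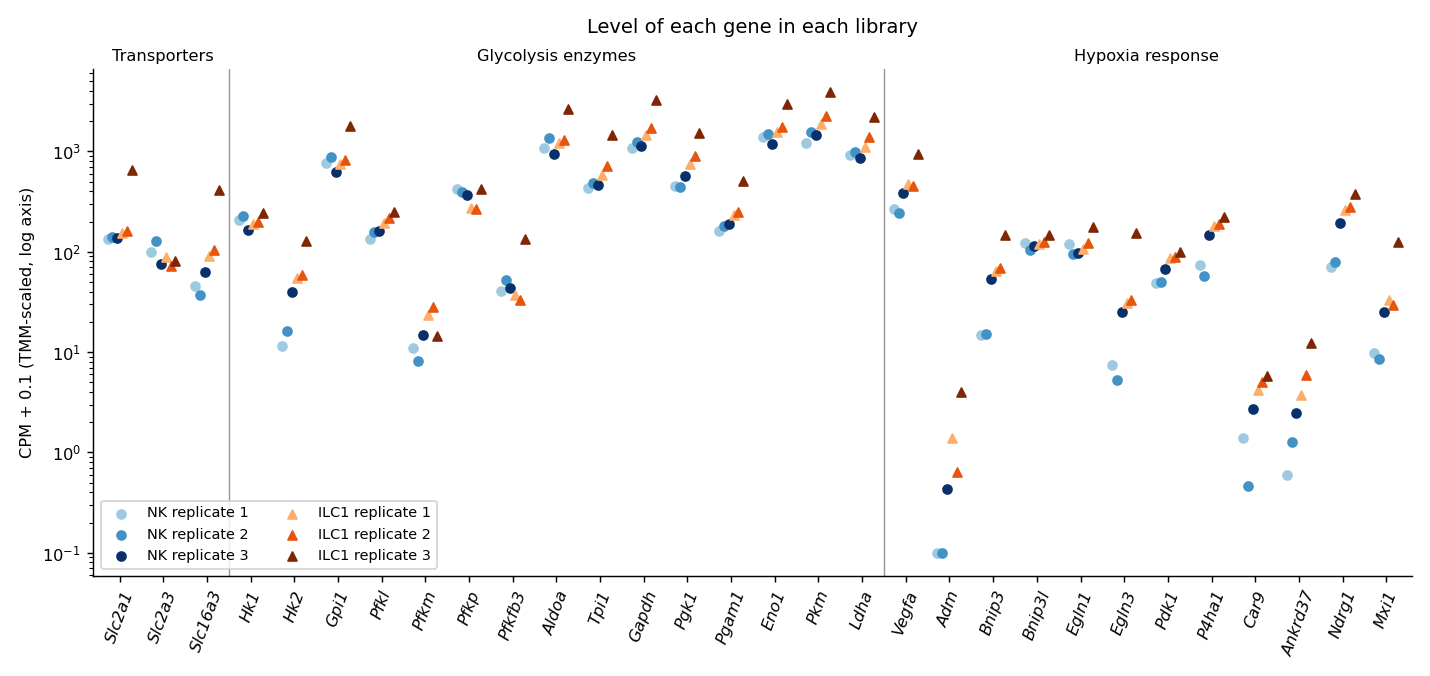
Level of the 30 genes in each library (vertical log axis, TMM-scaled CPM with 0.1 added for display). Circles are NK and triangles ILC1 libraries. In the hypoxia response panel NK replicate 3 (dark blue) lies near ILC1 replicates 1 and 2 for most genes, whereas among the glycolysis enzymes it lies with the other NK libraries, Hk2 being an exception.

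HIF-1 binds a short core sequence, ACGTG or GCGTG, in the genes it controls. Promoter windows of 300 bases, 250 before to 50 after a gene's start, were found in RefSeq (GRCm38.p6) for 27 of the 30 genes, in 42 windows, some of which overlap one another. Either core, on either strand, was in 33 of the 42 windows (78.6%), against 43.8% of all 32851 windows of the same length, and ACGTG was in 24 (57.1%), against 19.6%. The genes were listed as glycolysis genes and known HIF targets, so the higher share may follow from that choice and says nothing about these samples. Some genes gave several windows. Base composition was not matched, and a match is a description of letters, not of binding. The 250 bases before the start are printed for 6 genes with a core there. They were chosen, after their values were seen, from the 13 genes that DESeq2 called higher, so as to show a transporter, an enzyme above and one below phosphofructokinase and 3 hypoxia response genes. Capitals mark the core on either strand, where CACGT and CACGC are the cores read on the opposite strand.

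The sequences run 5′ to 3′ along each gene's strand and end at the base before the start.
Hk2 promoter (chr6:82774455-82774704, reverse strand): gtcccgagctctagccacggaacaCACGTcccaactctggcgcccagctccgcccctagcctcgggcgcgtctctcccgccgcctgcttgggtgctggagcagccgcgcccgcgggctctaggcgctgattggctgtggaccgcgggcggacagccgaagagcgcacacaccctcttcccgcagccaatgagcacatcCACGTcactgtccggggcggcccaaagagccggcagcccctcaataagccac
Slc16a3 promoter (chr11:120948817-120949066, forward strand): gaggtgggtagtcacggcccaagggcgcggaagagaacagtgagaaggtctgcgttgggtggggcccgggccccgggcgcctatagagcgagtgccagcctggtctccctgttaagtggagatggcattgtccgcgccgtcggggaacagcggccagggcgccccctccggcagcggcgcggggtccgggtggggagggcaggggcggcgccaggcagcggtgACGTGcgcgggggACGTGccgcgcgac
Pdk1 promoter (chr2:71872974-71873223, forward strand): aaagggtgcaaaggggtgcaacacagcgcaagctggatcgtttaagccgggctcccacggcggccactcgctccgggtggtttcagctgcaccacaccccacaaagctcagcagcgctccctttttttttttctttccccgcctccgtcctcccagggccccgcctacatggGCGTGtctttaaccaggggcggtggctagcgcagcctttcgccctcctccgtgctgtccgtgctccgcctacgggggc
P4ha1 promoter (chr10:59323046-59323295, forward strand): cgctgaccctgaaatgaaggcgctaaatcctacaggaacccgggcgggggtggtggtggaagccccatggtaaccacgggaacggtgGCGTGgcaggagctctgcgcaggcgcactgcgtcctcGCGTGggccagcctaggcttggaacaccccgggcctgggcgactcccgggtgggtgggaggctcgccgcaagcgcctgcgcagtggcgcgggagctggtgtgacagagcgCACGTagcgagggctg
Bnip3 promoter (chr7:138909507-138909756, reverse strand): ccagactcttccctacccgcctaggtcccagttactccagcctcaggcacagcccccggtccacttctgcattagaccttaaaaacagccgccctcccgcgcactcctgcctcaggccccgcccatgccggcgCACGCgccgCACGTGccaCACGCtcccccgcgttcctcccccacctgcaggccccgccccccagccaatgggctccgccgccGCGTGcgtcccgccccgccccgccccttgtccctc
Pgk1 promoter (chrX:106186850-106187099, forward strand): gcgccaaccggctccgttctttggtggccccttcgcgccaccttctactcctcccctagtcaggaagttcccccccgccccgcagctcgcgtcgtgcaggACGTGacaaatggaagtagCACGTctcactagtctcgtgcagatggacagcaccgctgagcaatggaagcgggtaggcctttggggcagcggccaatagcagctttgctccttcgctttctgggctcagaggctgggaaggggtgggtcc

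The cores lay at different places. In Slc16a3 both stood within the last stretch before the RefSeq start. That start lies inside the gene's GENCODE M21 span (120948480 to 120960868), not at its outer end. In Pgk1 a pair lay in the middle of the window on opposite strands, and in Bnip3 a palindromic CACGTG was flanked by further cores. Pdk1 had a single GCGTG, and P4ha1 a pair of GCGTG with a CACGT near the start. Hk2 had a CACGT near the far end and another closer to the start. Tpi1 and Gpi1, with 1 window each, held no core before the start, which says only that these letters are not in this window.

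The transporters divided. Slc2a1, which encodes GLUT1, the glucose transporter that HIF-1 and lymphocyte activation both raise, was at 135, 139 and 137 CPM in the NK libraries and 153, 162 and 659 CPM in the ILC1 libraries (replicates 1 to 3 in each case, here and below). The 2 groups did not overlap, but ILC1 replicates 1 and 2 exceeded the NK libraries by little and ILC1 replicate 3 stood far above the rest. The fitted log2 fold change was 1.25 ± 0.61 with all libraries and 0.19 ± 0.11 without ILC1 replicate 3. For fold changes, ± is an SE, taken as the absolute fold change divided by the square root of edgeR's F statistic. Slc2a3, which encodes GLUT3, a transporter with high affinity for glucose, was at 99.7, 128 and 76.2 CPM in the NK libraries and 88.8, 71.7 and 79.9 CPM in the ILC1 libraries, and these ranges overlapped. Slc16a3 encodes MCT4, the carrier through which glycolytic cells release lactate. It was at 45.7, 36.6 and 62.8 CPM in the NK libraries and 91.0, 103 and 415 CPM in the ILC1 libraries. Each ILC1 library lay above each NK library, with ILC1 replicate 3 the highest by a wide margin, and the log2 fold change was 2.07 ± 0.67 (edgeR, adjusted p = 0.267) and 0.98 ± 0.26 once that library was left out.

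At the entry of glycolysis the hexokinases behaved differently from each other. Hk2, the inducible hexokinase that binds mitochondria and is a HIF target, was at 11.4, 16.1 and 39.3 CPM in the NK libraries and 55.1, 59.1 and 128 CPM in the ILC1 libraries. NK replicate 3 held more Hk2 than the other NK libraries and less than any ILC1 library. Its log2 fold change was 1.86 ± 0.59 (edgeR, adjusted p = 0.261), or 1.33 ± 0.58 with ILC1 replicate 3 left out. Hk1, the constitutive isozyme, was at 206, 226 and 164 CPM in the NK libraries and 189.7, 196 and 243 CPM in the ILC1 libraries, with overlapping groups and a log2 fold change of 0.07 ± 0.18 that was -0.054 without ILC1 replicate 3. Gpi1, which converts glucose 6-phosphate to fructose 6-phosphate, was at 774, 882 and 622 CPM in the NK libraries and 748, 814 and 1779 CPM in the ILC1 libraries. Its groups overlapped, and only ILC1 replicate 3 lay outside the NK range on the high side.

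Phosphofructokinase commits sugar to glycolysis and is built from liver, muscle and platelet subunits. Pfkl, the liver type, was at 133, 156 and 162 CPM in the NK libraries and 192, 214 and 251 CPM in the ILC1 libraries, without overlap (log2 fold change 0.55 ± 0.16, edgeR adjusted p = 0.215). The muscle type Pfkm was at 10.8, 8.004 and 14.6 CPM in the NK libraries and 23.4, 28.2 and 14.4 CPM in the ILC1 libraries, high in ILC1 replicates 1 and 2 and at the NK level in ILC1 replicate 3. Pfkp, the platelet type, went the other way in ILC1 replicates 1 and 2. It was at 424, 391 and 371 CPM in the NK libraries and 272, 266 and 419 CPM in the ILC1 libraries, so that the groups overlapped through ILC1 replicate 3 alone, with a log2 fold change of -0.31 ± 0.21 and of -0.57 ± 0.12 without that library (edgeR adjusted p = 0.159). Pfkfb3 makes fructose 2,6-bisphosphate, the strongest activator of phosphofructokinase. It was at 40.6, 52.7 and 43.5 CPM in the NK libraries and 37.0, 33.3 and 134 CPM in the ILC1 libraries, lowest in ILC1 replicates 1 and 2 and highest in ILC1 replicate 3, and its log2 fold change turned from 0.58 ± 0.58 to -0.39 ± 0.17 without the latter.

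The enzymes below phosphofructokinase were among the most abundant of the 30 genes and were highest in ILC1 replicate 3 in every case. Gapdh, which encodes the dehydrogenase that reduces NAD+ in glycolysis, was at 1078, 1239.8 and 1141 CPM in the NK libraries and 1441, 1704 and 3283 CPM in the ILC1 libraries (log2 fold change 0.89 ± 0.33, and 0.44 ± 0.15 without ILC1 replicate 3). Pgk1 was at 456, 439 and 570.1 CPM in the NK libraries and 751, 900.4 and 1511 CPM in the ILC1 libraries (1.11 ± 0.29, and 0.74 ± 0.19 without it). In both genes the NK libraries lay close together, ILC1 replicates 1 and 2 above them and ILC1 replicate 3 highest. Pkm, which encodes pyruvate kinase and yields the second ATP, was at 1213, 1549 and 1449.5 CPM in the NK libraries and 1863, 2269.7 and 3884 CPM in the ILC1 libraries. Ldha, the lactate dehydrogenase subunit that favours lactate, was at 913, 975 and 857 CPM in the NK libraries and 1100.1, 1402 and 2187 CPM in the ILC1 libraries. Their log2 fold changes were 0.93 ± 0.30 and 0.77 ± 0.27, and 0.54 ± 0.18 and 0.44 ± 0.15 without ILC1 replicate 3.

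Of the remaining enzymes, Tpi1, which interconverts the triose phosphates, was at 428, 479.6 and 458 CPM in the NK libraries and 577, 714 and 1450.4 CPM in the ILC1 libraries, and Pgam1, the phosphoglycerate mutase, at 159.5, 180.0 and 188 CPM in the NK libraries and 230.4, 248 and 512 CPM in the ILC1 libraries. Enolase 1 (Eno1) was at 1404, 1488 and 1179.6 CPM in the NK libraries and 1563, 1767 and 2950.2 CPM in the ILC1 libraries. For these 3 genes no NK library reached any ILC1 library. Aldoa, which splits fructose 1,6-bisphosphate, was at 1075, 1370.0 and 939 CPM in the NK libraries and 1220.2, 1292 and 2642 CPM in the ILC1 libraries, where NK replicate 2 exceeded ILC1 replicates 1 and 2. By edgeR these 4 genes had adjusted p = 0.281, 0.286, 0.337 and 0.443. Gapdh, often used as a reference gene, had 1.86 times the mean NK level in ILC1s, and 1.36 times without ILC1 replicate 3.

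Of the 12 HIF targets outside glycolysis, 12 had positive fold changes (56% of all genes tested), and for 10 every ILC1 library lay above every NK library (12.5%). None passed edgeR's adjusted threshold (0.076% of all genes called higher), and 9 were higher at an unadjusted p under 0.05 (6.95%). Their median log2 fold change was 1.60, and 1.17 without ILC1 replicate 3. Ndrg1 was at 70.3, 78.2 and 192 CPM in the NK libraries and 259, 282 and 379.6 CPM in the ILC1 libraries. P4ha1, the catalytic subunit of the prolyl hydroxylase that matures collagen, was at 74.4, 56.9 and 146 CPM in the NK libraries and 181, 189 and 223 CPM in the ILC1 libraries. In both, NK replicate 3 lay nearer to ILC1 replicates 1 and 2 than to the other NK libraries. The log2 fold change of Ndrg1 was 1.43 ± 0.44, and P4ha1 had 2.14 times the mean NK level in ILC1s (edgeR adjusted p = 0.241 and 0.266), and Col3a1 was high in the same NK library.

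Pdk1, the kinase that keeps pyruvate out of mitochondria by switching off pyruvate dehydrogenase, had the smallest p of the 30 genes. It was at 48.9, 50.3 and 67.0 CPM in the NK libraries and 86.2, 87.5 and 98.9 CPM in the ILC1 libraries, with a log2 fold change of 0.71 ± 0.16 (edgeR, adjusted p = 0.160), or 0.63 ± 0.19 with ILC1 replicate 3 left out. Unlike most of the others it was only slightly higher in ILC1 replicate 3 than in its fellow ILC1 libraries. The mitophagy receptor gene Bnip3 was at 14.8, 14.9 and 52.9 CPM in the NK libraries and 64.6, 69.1 and 146 CPM in the ILC1 libraries, and its paralog Bnip3l at 121, 105 and 113 CPM in the NK libraries and 120.2, 126 and 148 CPM in the ILC1 libraries. Bnip3 was low in NK replicates 1 and 2 only, whereas Bnip3l varied little and its groups overlapped.

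The oxygen sensors split in the same way. Egln3 (PHD3), the HIF prolyl hydroxylase that is itself strongly HIF-induced, was at 7.38, 5.13 and 25.0 CPM in the NK libraries and 30.6, 32.8 and 153 CPM in the ILC1 libraries. Egln1 (PHD2), the main oxygen sensor, was at 119, 94.1 and 97.2 CPM in the NK libraries and 107, 121 and 178 CPM in the ILC1 libraries, with overlapping groups. Mxi1, a MAX partner that opposes MYC, followed Egln3, at 9.58, 8.52 and 24.8 CPM in the NK libraries and 33.1, 29.6 and 126 CPM in the ILC1 libraries. For Egln3 and Mxi1, NK replicate 3 was close to ILC1 replicates 1 and 2, and ILC1 replicate 3 far above all. Their log2 fold changes were 2.52 ± 0.94 and 2.13 ± 0.76, and 1.31 ± 0.75 and 1.104 ± 0.53 without ILC1 replicate 3.

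Vegfa, the main angiogenic growth factor, was the most abundant of these 12 genes, at 268, 243 and 388 CPM in the NK libraries and 477, 453 and 950.0 CPM in the ILC1 libraries (log2 fold change 1.07 ± 0.36, edgeR, adjusted p = 0.268; 0.62 ± 0.24 with ILC1 replicate 3 left out). Every ILC1 library lay above every NK library, NK replicate 3 again being the highest of its group. The other 3 genes had few counts. Ankrd37, a small ankyrin-repeat HIF target, was at 0.499, 1.18 and 2.35 CPM in the NK libraries and 3.67, 5.84 and 12.3 CPM in the ILC1 libraries. Carbonic anhydrase 9 (Car9), a classical hypoxia marker of carcinoma cells, was at 1.297, 0.359 and 2.59 CPM in the NK libraries and 4.06, 4.91 and 5.67 CPM in the ILC1 libraries. Adrenomedullin (Adm), a vasodilator peptide, had 0 counts in NK replicates 1 and 2, 7 in NK replicate 3 and 23, 11 and 68 in ILC1 replicates 1 to 3, which is 3.93 CPM at most. In all 3 genes the NK and ILC1 libraries did not overlap.

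**Figure D3:**
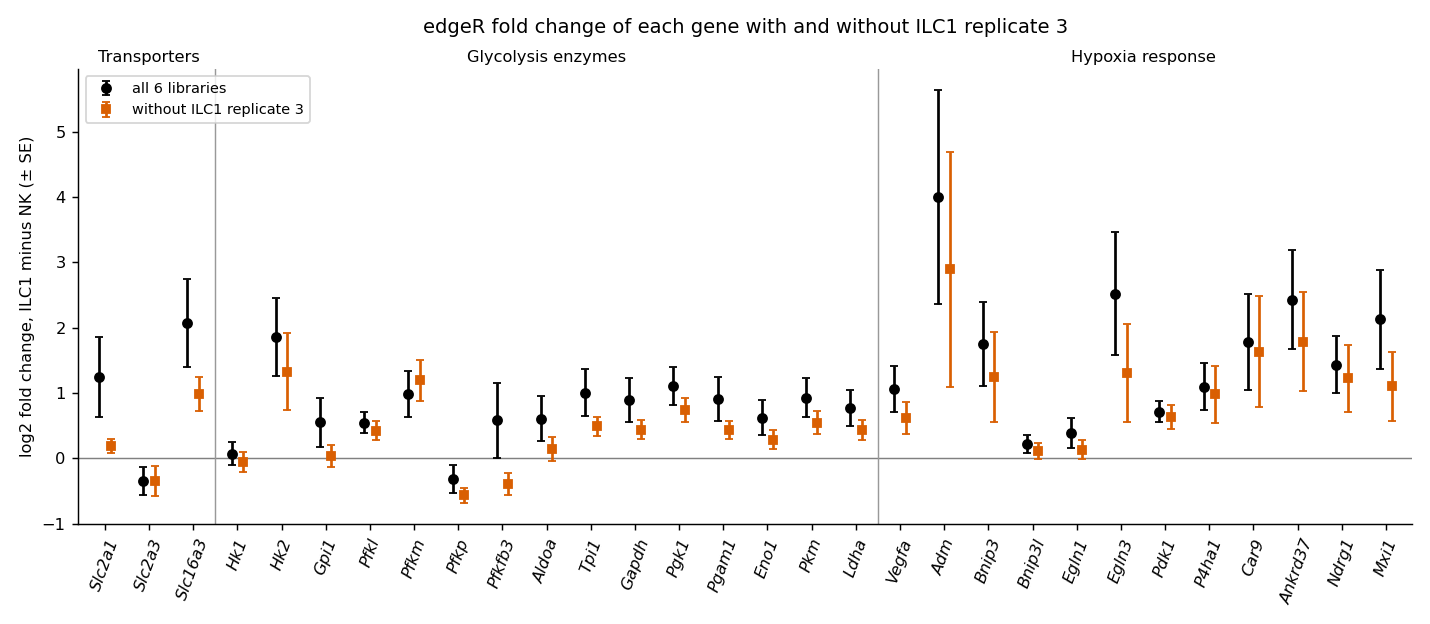
Log2 fold change, ILC1 minus NK, of each gene in edgeR's fit with its SE (vertical axis), for all 6 libraries (circles) and without ILC1 replicate 3 (squares). Without that library Slc2a1 drops to 0.19 and Gpi1 to 0.032, Pfkfb3 and Hk1 turn negative, and Pfkm and Pdk1 move by less than 1 SE.

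The order of the libraries differed between the groups of genes. NK replicate 3 was compared with the mean of NK replicates 1 and 2, with values under 3 counts set to 3 counts. The median log2 difference was 1.26 for the 12 hypoxia response genes, -0.023 for the 15 glycolysis genes and 0.048 for all genes tested. NK replicate 3 was at least 2-fold above both other NK libraries for 5 of the 12 (Adm, Bnip3, Egln3, Ndrg1 and Mxi1) and for 1 of the 15, Hk2 (15.2% of all genes tested). Going from NK replicate 3 to the mean of ILC1 replicates 1 and 2, the medians were 0.34 and 0.46 (0.060 for all genes tested). Both ILC1 libraries exceeded NK replicate 3 for 27 of the 30 genes, all but Slc2a3, Pfkp and Pfkfb3 (45.2% of all genes tested). From there to ILC1 replicate 3 the medians were 0.84 and 0.91 (-0.10 for all genes tested). In that step 13 of the 30 genes were at least 2-fold above both other ILC1 libraries (7.81%), among them Slc2a1, Slc16a3, Pfkfb3, Egln3 and Mxi1. These are differences between single libraries, with no test. Col3a1 was high in NK replicate 3 and in ILC1 replicates 1 and 2, and the macrophage markers in ILC1 replicate 3. Mitochondrial transcripts made up 1.72, 1.39 and 3.30% of the 3 NK libraries and 3.07, 2.65 and 1.93% of the 3 ILC1 libraries. Genes with at least 1 count numbered 15819, 15862 and 20772 in the NK libraries and 21799, 21872 and 19402 in the ILC1 libraries. The part of these features in the differences between libraries was not tested.

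Among NK replicate 3 and ILC1 replicates 1 and 2 alone, the libraries with the most Col3a1, the median log2 fold change of the 30 genes was 0.32 (0.017 over all genes tested). Hk2, Slc16a3 and Pfkm were at 0.50, 0.58 and 0.78. With 1 NK library, assumed to vary as the ILC1 pair does, and with ILC1 replicates 1 and 2 the most alike of all pairs within a group, edgeR put 6.13% of all genes past its threshold as higher and 6% as lower. Its p-values there support no call for any of the 30 genes.

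**Figure D4:**
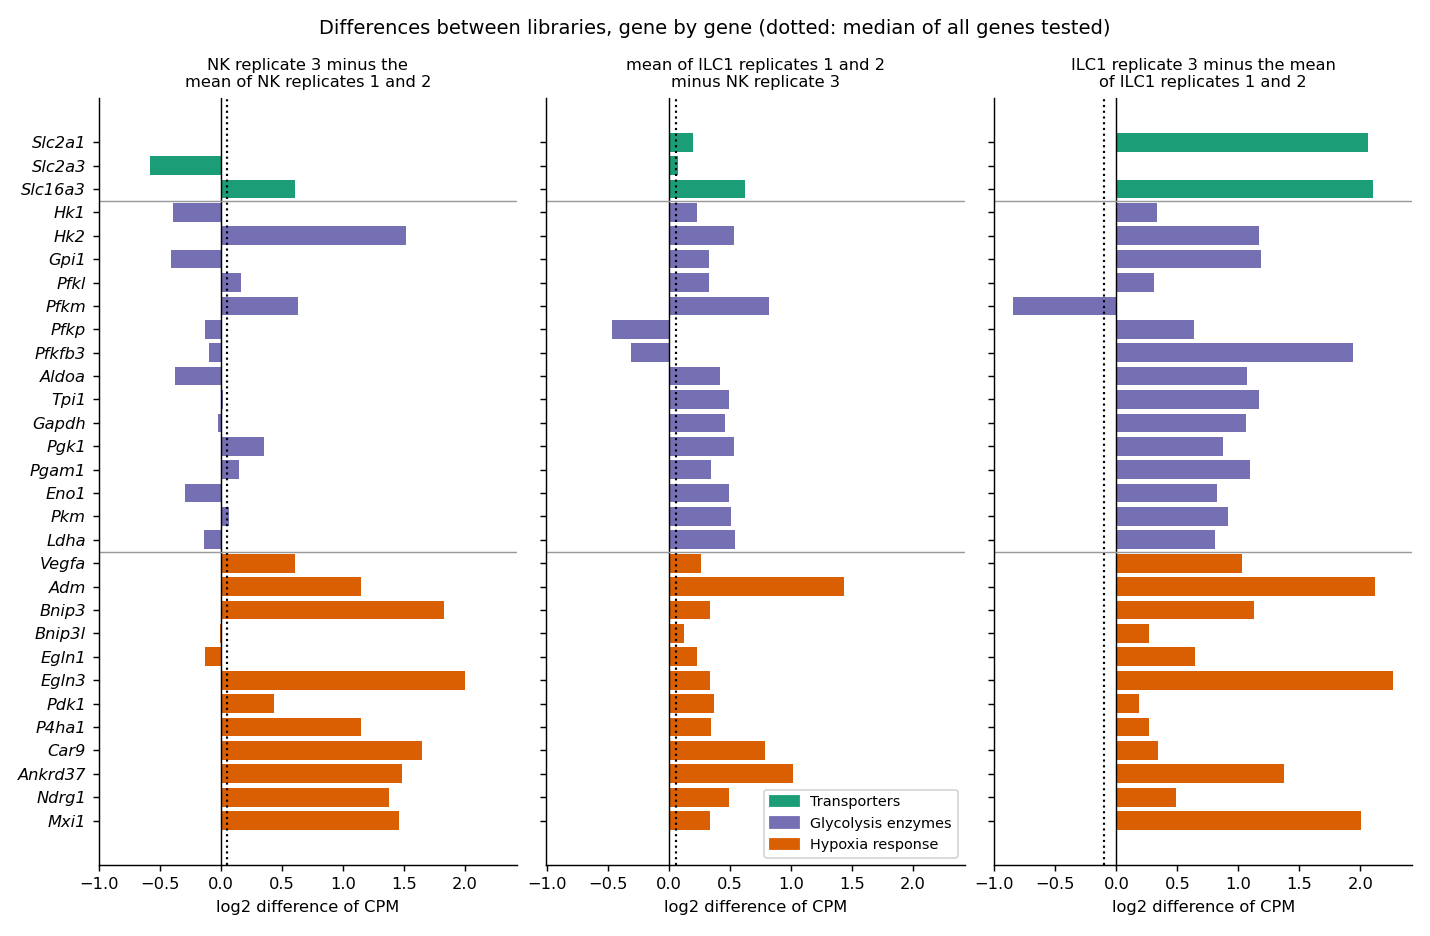
Differences between libraries for each gene on the log2 scale (horizontal axis), in 3 panels that lead from NK replicates 1 and 2 to NK replicate 3, to ILC1 replicates 1 and 2, and to ILC1 replicate 3. Dotted lines are the median of all genes tested (0.048, 0.060 and -0.10). The left panel is filled by hypoxia response genes and Hk2. In the middle panel 28 of 30 bars are positive (8130 of all 14475 genes tested), from -0.46 for Pfkp to 1.43 for Adm. The right panel is led by Egln3, Adm, Slc16a3 and Slc2a1.

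Where 2 or 3 genes serve the same step, their shares were computed from CPM per kb of exon. All these percentages rest on the exon lengths used, which join all annotated exons of a gene. Hk2 made up 7.30, 9.25 and 25.5% of hexokinase mRNA (Hk1 plus Hk2) in NK replicates 1 to 3 and 29.3, 30.2 and 43.0% in ILC1 replicates 1 to 3. The Pfkp share of phosphofructokinase mRNA was 57.8, 53.1 and 49.2% in NK and 36.2, 32.8 and 42.7% in ILC1 libraries. The liver type Pfkl held 36.3, 42.5 and 43.0%, and 51.3, 53.2 and 51.4%, so that per kb Pfkp led in all NK libraries and Pfkl in all ILC1 libraries. Which subunit leads rests on the exon lengths used, 13401 bases for Pfkp and 6675 for Pfkl, since in CPM not divided by length Pfkp exceeded Pfkl in all 6 libraries. The Pfkp share was lower in each ILC1 library than in each NK library. Its mean was 53.4% in NK cells and 37.3% in ILC1s, or 34.5% in ILC1s without ILC1 replicate 3. Bnip3 made up 27.1 ± 15.1% of Bnip3 plus Bnip3l in NK cells and 52.9 ± 8.40% in ILC1s, a mean ± SD over 3 libraries each. Egln3 made up 7.74, 6.86 and 25.8% of Egln3 plus Egln1 in the NK libraries and 27.8, 26.8 and 53.6% in the ILC1 libraries, with group means of 13.5 and 36.1%, the latter being 27.3% without ILC1 replicate 3. NK replicate 3, at 44.4% for Bnip3 and 25.8% for Egln3, was close to ILC1 replicates 1 and 2 in both.

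Of the 7 shares compared, those of Hk2, Pfkp, Pfkl, Bnip3 and Egln3 did not overlap between groups. In a two-sided exact permutation test of 3 against 3 libraries they had p = 0.1, the smallest this design can give, and 0.14 after Benjamini-Hochberg adjustment over the 7, so none can pass 0.05. Slc2a1 made up 73.8 ± 4.90% of the 2 glucose transporters in NK cells and 84.99 ± 8.48% in ILC1s, with overlap (exact p = 0.2, adjusted 0.233). Pfkm, the rarest subunit, held 6.00 ± 1.70 and 10.8 ± 4.32% (exact p = 0.3).

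**Figure D5:**
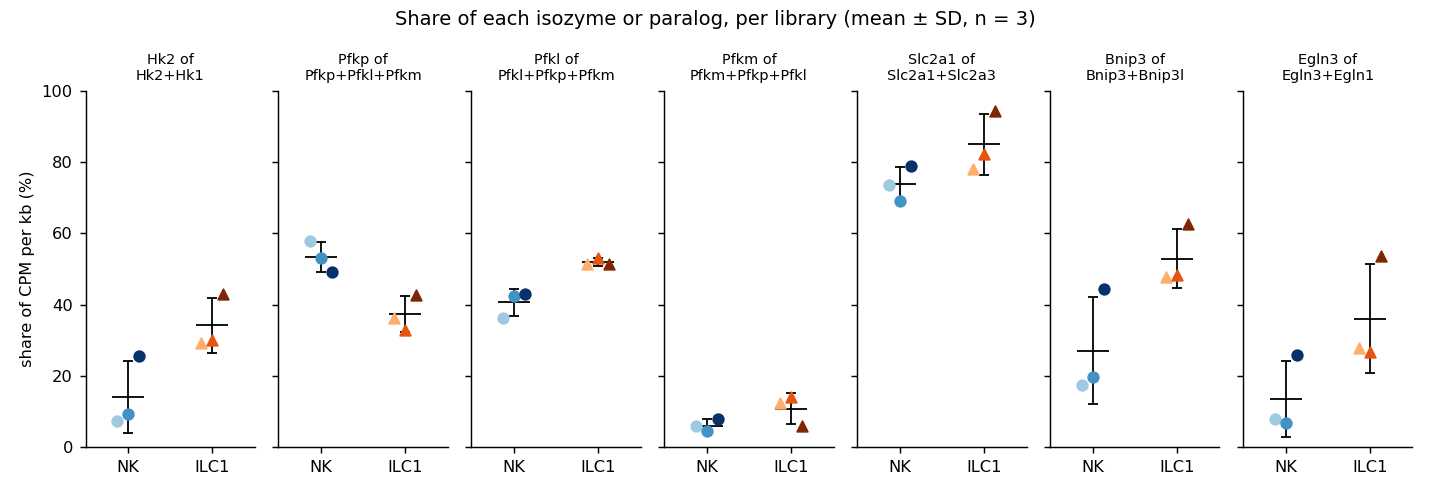
Share of 7 isozymes or paralogs in the summed CPM per kb of their step (vertical axis, percent), with a point for each library (same colours as in the plot of levels by library) and the mean ± SD of 3. Pfkp sits at 49.2 to 57.8% in NK and at 32.8 to 42.7% in ILC1 libraries while Pfkl sits at 51.3 to 53.2% in ILC1s, and NK replicate 3 is the highest NK point for Hk2, Bnip3 and Egln3.

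Levels can be set beside each other between genes only per length. In CPM per kb of exon, Aldoa (304), Pkm (281), Gapdh (279), Ldha (276) and Eno1 (252) led in NK cells, and the ranges of these 5 over libraries overlapped. In ILC1s the leading genes were Pkm (534), Gapdh (518), Ldha (472), Pgk1 (469.7) and Aldoa (463). Vegfa (69.9 in NK cells and 146 in ILC1s) had rank 10 in both orders, above Slc2a1 (39.1 and 92.7) and every hexokinase and phosphofructokinase gene. These orders rest on the exon lengths used, which join all annotated exons of a gene, 4285 bases for Vegfa and 13401 for Pfkp. In CPM not divided by length, Pfkp exceeded Vegfa in NK cells (395 against 300) but not in ILC1s (319 against 627). Pfkp went from rank 12 (29.5) in NK cells to rank 21 (23.8) in ILC1s, and P4ha1 from rank 17 (22.4) to rank 12 (48.1). The lowest were Adm (0.0691 and 1.18), Car9 (0.614 and 2.12) and Ankrd37 (0.873 and 4.73) in both cell types.

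Summed over the 15 glycolysis genes, the level was 8659 ± 689.6 CPM for NK cells against 14519.5 ± 6005 CPM for ILC1s, a ratio of 1.68, which was 1.28 without ILC1 replicate 3. The 12 hypoxia response genes summed to 834 ± 243 and 1732 ± 601 CPM, a ratio of 2.08 and of 1.66 without that library. The 3 transporters summed to 287 ± 14.7 and 608 ± 473 CPM, a ratio of 2.12 and of 1.17 without it. No group of genes overlapped between cell types, and each exact permutation p was 0.1 (two-sided, 3 against 3). As a share of all deposited counts, the 30 genes took 0.945, 1.03 and 1.02% in the NK and 1.27, 1.41 and 2.13% in the ILC1 libraries.

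Other genes of the pathway were described from lists chosen for their roles. Of 18 tested isozymes outside the 30 genes, 0 passed edgeR's adjusted threshold, and 2 were higher and 0 lower at an unadjusted p under 0.05 (6.95 and 8.82% of all genes tested), close to the share of all genes. Their median log2 fold change was 0.063. The brain aldolase Aldoc was at 14.3, 18.8 and 16.7 CPM in the NK libraries and 37.6, 33.0 and 107 CPM in the ILC1 libraries, with a log2 fold change of 1.83 ± 0.49 that was 1.08 without ILC1 replicate 3. Slc16a1, which encodes the lactate carrier MCT1, had 69.2 ± 8.18 CPM among ILC1s against 41.5 ± 10.0 among NK cells. Tigar, a phosphatase that lowers fructose 2,6-bisphosphate, had 12.6 ± 1.64 and 8.83 ± 0.685 CPM. Of 31 further HIF targets 0 passed, and 11 were higher and 2 lower at an unadjusted p under 0.05 (6.95 and 8.82% of all genes tested), with a median of 0.92, and of 0.53 without ILC1 replicate 3. The cytokine gene Mif had 294 ± 69.6 and 144 ± 21.3 CPM and the mTOR inhibitor gene Ddit4 188 ± 29.0 and 99.6 ± 25.4 CPM, whereas the chemokine receptor gene Cxcr4 had 209 ± 87.1 CPM among ILC1s against 546 ± 20.3 among NK cells.

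Of 13 tested HIF subunits and regulators, 0 passed, and 5 were higher and 1 lower at an unadjusted p under 0.05 (6.95 and 8.82% of all genes tested), with a median of 0.033. Hif1a had a log2 fold change of 0.52 ± 0.33, and of 0.055 without ILC1 replicate 3, and its partner Arnt 0.033 ± 0.16. Epas1, which encodes HIF-2α, had 7.87 ± 3.22 CPM among ILC1s against 2.89 ± 0.281 among NK cells, and Arnt2, a relative of Arnt, 20.7 ± 4.69 and 0.750 ± 0.523 CPM. Siah2, a ubiquitin ligase that acts on HIF hydroxylases, had 33.3 ± 0.940 and 23.9 ± 1.03 CPM. None of these 5 passed edgeR's adjusted threshold.

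In the pentose phosphate pathway 0 of 8 genes had an unadjusted p under 0.05 in either direction (6.95 and 8.82% of all genes tested), the median log2 fold change was 0.22 and it was -0.052 without ILC1 replicate 3. Pgd, Tkt and G6pdx stood at 453, 784 and 117 CPM in ILC1 replicate 3. In ILC1 replicates 1 and 2 Pgd was at 182 and 202 CPM, Tkt at 370 and 414 CPM and G6pdx at 60.5 and 67.5 CPM. The NK means of Pgd, Tkt and G6pdx were 180, 367 and 65.7 CPM. Of 12 genes of pyruvate entry to mitochondria 0 were higher and 1 lower at an unadjusted p under 0.05 (6.95 and 8.82% of all genes tested), a share near that of all genes, and the median was 0.14. The kinase gene Pdk2 had 7.52 ± 1.36 CPM among ILC1s against 15.2 ± 6.12 among NK cells, Pdk3, another such kinase, 36.5 ± 8.84 and 26.8 ± 4.04 CPM, and Pdhx, a structural subunit of the dehydrogenase complex, 14.6 ± 2.13 and 10.7 ± 3.14 CPM. Among 12 inputs to glycolytic gene expression 3 were higher and 0 lower at an unadjusted p under 0.05 (6.95 and 8.82% of all genes tested), with a median of 0.15. They were Eif4ebp1, a translation repressor that mTOR inactivates, with 69.9 ± 29.9 and 22.6 ± 13.5 CPM, the amino acid carrier gene Slc7a5, with 138 ± 31.4 and 91.6 ± 19.6 CPM, and Irf4, a transcription factor of activated lymphocytes. Irf4 was at 2.74, 2.87 and 3.12 CPM in the NK libraries and 4.61, 4.14 and 15.3 CPM in the ILC1 libraries, and its log2 fold change of 1.46 ± 0.59 was 0.57 without ILC1 replicate 3. Myc had a log2 fold change of 0.13 ± 0.42. Over all genes 0 members of these 3 lists passed edgeR's adjusted threshold.

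Copies elsewhere in the genome limit some of these counts. Of all 50-base windows in the GENCODE M21 transcripts of Pgk1, 53.9% also occur, on either strand, in a transcript of another gene. For Bnip3 the share was 47.2%, for Pgam1 36.2%, for Eno1 25.99%, for Pkm 25.8% and for Gapdh 25.1%. Next came Bnip3l at 20.8%, Ankrd37 at 17.0% and Gpi1 at 15.8%. The share was 0% for Hk2, Slc16a3, Adm, Egln1, Egln3, Pdk1 and P4ha1. How reads with several matches were treated is not given in the sources used here. Levels of the genes with large shares are therefore uncertain, and so is the part of Bnip3 in Bnip3 plus Bnip3l. Pkm shares 767 exon bases with Gm49759 on the same strand. Exons of Pfkp overlap those of Pitrm1 on the opposite strand over 748 bases, and Ankrd37 overlaps Ufsp2 over 57 bases, where reads cannot be told apart if strand was not used. On GRCm38 the protein-coding gene Pdk1 lies on chromosome 2 (71873224 to 71903858), Ndrg1 on chromosome 15 (66929318 to 66969640), Slc16a3 on chromosome 11 (120948480 to 120960868), Hk2 on chromosome 6 (82725025 to 82774454) and Pgk1 on chromosome X (106187100 to 106203699).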

How the data were processed

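RNA was sequenced from 3 NK and 3 ILC1 samples of MC38 tumours. Reads were single ends of 50 bases from poly(A) RNA, per the labels' protocols. The authors deposited raw counts for 55291 gene symbols, 1 column per sample. Per the submitters' processing notes, HISAT2 2.1.0, featureCounts 2.0.1 and GRCm38 were used. The sources used here do not give the annotation release, the strand setting or the treatment of multi-mapping reads. PCR copies could not be removed without molecular identifiers, so limits cover counting error only.

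CPM were computed over TMM-scaled library sizes. ILC1 and NK libraries were compared with edgeR 4.0.16 under R 4.3.3 (TMM, filterByExpr, robust quasi-likelihood fit with cell type as the only term, Benjamini-Hochberg adjustment over 14475 genes, threshold 0.05). On simulated counts, its fold changes were checked only with dispersions held to at most 0.05. The common dispersion of these data was 0.352, so that check does not show how often a true change would pass here. The alternatives were RLE and upper-quartile scaling, no filter, a mean of at least 5 CPM, the replicate number as a block, leaving out each library, DESeq2 1.42.0, limma-voom (limma 3.58.1), library sets as a term (NK 1 and 2, NK 3 with ILC1 1 and 2, ILC1 3), and NK 3 with ILC1 1 and 2 alone. Shares and sums were compared with exact permutation tests (scipy 1.17.1). The 30 genes, the lists and the library sets were chosen with earlier results of these data known. Values per library are given for the 16 genes with the smallest p, 10 genes fixed by name and further members. From each other list the 3 genes with the smallest p are named, mostly by group means. Hif1a, Arnt and Myc were named in addition, after their values were seen. No library was a duplicate: within a group the median chi-square of a gene between libraries was at least 2.42, and 0.455 would follow from counting alone. Positions are from GENCODE M21 (GRCm38) and promoters from RefSeq (GRCm38.p6).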

Additional observations from a re-analysis of the deposited data

How the results depend on the processing

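Of the 15 alternatives, 0 of the 30 genes passed in 12, as with all 6 libraries and edgeR. DESeq2 called 13 higher, and it gave no adjusted p for Adm and 2010 genes in all. NK replicate 3 with ILC1 replicates 1 and 2 alone gave 3, on a single NK library and with no weight as calls, and leaving out single libraries gave 0 to 3. Over all genes, where the comparison gave 11 higher and 1 lower, DESeq2 gave 426 and 584, those 3 libraries alone 956 and 935, no low-count filter 47 and 91, and single libraries left out 0 to 250 and 0 to 199. Of genes lower in ILC1s, library sets as a term gave 17, limma-voom 2 and a mean of at least 5 CPM 2. The median log2 fold change of the 30 genes was 0.32 in those 3 libraries and 0.36 with library sets as a term, against 0.96. These 2 alternatives rest on the same comparison, with 1 NK library, and are not separate checks. The median stayed between 0.86 and 0.98 under every other alternative that kept all 6 libraries. With single libraries left out it ran from 0.52 (without ILC1 replicate 3) to 1.13 (without ILC1 replicate 1).

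The sign changed for 3 of 30 genes. Slc2a3 was at 0.033 in NK replicate 3 with ILC1 replicates 1 and 2 and at 0.073 with library sets as a term, which rests on the same 3 libraries. Hk1 was at -0.054 without ILC1 replicate 3 and at -0.038 without NK replicate 3, and leaving out single libraries gave up to 0.18 (without NK replicate 2). Pfkfb3 was at -0.35 in those 3 libraries, at -0.31 with library sets as a term and at -0.39 without ILC1 replicate 3, and leaving out single libraries gave up to 0.92 (without ILC1 replicate 2). None of these values passed edgeR's test, and the cause was not tested.

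With the replicate number as a block, 0 genes were higher and 0 lower, and the median of the 30 genes was 0.86. Same-numbered samples did not deviate together (correlations of -0.37, -0.37 and -0.54 over genes), no sample correlated best with its own number, and the labels do not say that a number marks a shared mouse.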
